A study of Mus musculus with 2 samples.

Results

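The cytosolic ribosome is built from ribosomal RNA and a set of small basic proteins, and the genes for these proteins (Rpl for the large subunit, Rps for the small one) are the subject here. Members were taken by symbol: Rpl or Rps followed by digits and at most a few letters, without the S6 kinase genes and without symbols marked as pseudogenes, plus Rplp0, Rplp1, Rplp2 and Rpsa. This gave 86 of the 31053 genes in the files, 52 with a large-subunit and 34 with a small-subunit prefix. Rps19bp1 meets the symbol rule although it encodes a nucleolar partner of Rps19 and not a ribosomal protein. The study sorted immature γδ T cells by mitochondrial membrane potential, read as the brightness of the dye TMRE, and made 1 single-cell library of each fraction with a 5′ kit. TMREhi held the bright and TMRElo the dim cells of the CD24+ γδ T cell gate. Both came from wild-type C57BL/6 mouse thymic lobes explanted at embryonic day 15 and kept for 2 days in culture with no treatment. The labels do not say how many embryos were pooled.

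Ribosomal protein mRNAs belong to the most abundant mRNAs of a growing cell, and their products are made in near-equal amounts because each ribosome carries about the same set. Most of these mRNAs begin with a C followed by a run of pyrimidines, the 5′ terminal oligopyrimidine tract through which mTOR controls their translation. A few members have a paralog whose balance with its partner differs between tissues. In mice, loss of Rpl22 arrests αβ-lineage thymocytes and largely spares γδ T cells, and Rpl22 holds down its paralog Rpl22l1. Rps27l is the paralog of Rps27 and a target of p53.

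The annotated start sites of the members that stood furthest from the rest are shown because the 5′ kit reads the transcript from this end. Each window runs from 20 bases before to 20 bases after the RefSeq start on GRCm38.p6 (mm10 coordinates), on the transcribed strand, 5′ to 3′, and capitals mark the longest run of C and T that lies within 15 bases of the start. Where RefSeq lists several starts for a gene, the one with the longest run is shown.
Rpl22l1, chr3:28805488-28805527, plus strand: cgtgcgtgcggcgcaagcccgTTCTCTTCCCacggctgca
Rps27l, chr9:66946066-66946105, plus strand: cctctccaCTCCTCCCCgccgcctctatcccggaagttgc
Rps27, chr3:90213629-90213668, minus strand: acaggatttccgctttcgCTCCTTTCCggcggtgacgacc
Rps24, chr14:24490658-24490697, plus strand: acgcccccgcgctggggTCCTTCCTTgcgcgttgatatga
Rpl38, chr11:114668560-114668599, plus strand: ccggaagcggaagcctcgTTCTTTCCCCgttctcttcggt
Rpl13a, chr7:45128726-45128765, minus strand: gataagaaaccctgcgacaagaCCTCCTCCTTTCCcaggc
The run was 13 bases long in Rpl13a, where the edge of the 15-base span cuts it, 10 in Rpl22l1 and Rpl38, and 9 in Rps27l, Rps27 and Rps24. It lay after the start in Rpl22l1 and Rpl13a and crossed it in Rps27, Rps24 and Rpl38. In Rps27l it lay wholly before the start, outside the annotated transcript. The promoter table held 66 of the 86 members. A run of at least 6 bases, each C or T, searched on the transcribed strand alone, lay within 15 bases of the start in 39 of the 66 members (59.1%) and in 8833 of all 27025 genes of the table (32.7%). Runs before, across and after the start all counted. The match describes these letters at an annotated start and does not show that a transcript begins with them. A start that the cells use but the annotation places elsewhere would not be seen.

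A barcode counted as a retained cell from 500 detected genes and up to 10% mitochondrial UMIs. There were 317 such cells in TMREhi (2905666 UMIs in total) and 34 in TMRElo (105080 UMIs in total). No barcode occurred in both libraries. The median cell held 7465 UMIs in TMREhi and 1679 in TMRElo, and the 5 deepest cells held 4.70% of the UMIs in TMREhi and 44.0% in TMRElo. In both libraries all 9 γδ T cell markers found in the files were detected, at a summed 4108 CPM (UMIs scaled to an equal total per library) in TMREhi and 5158 CPM in TMRElo. Cd24a, which encodes the antigen of the gate, had 438 UMIs in TMREhi and 0 in TMRElo, where 3 UMIs correspond to 28.5 CPM. Markers of αβ-lineage thymocytes summed to 302 CPM in TMREhi, with 7 of 7 genes detected, and to 200 CPM in TMRElo, with 3 of 7 detected and Rag1, Rag2, Ptcra and Cd4 at 0. Myeloid markers summed to 220 CPM in TMREhi, with 5 of 5 detected. In TMRElo the sum of 200 CPM came from 1 of 5 genes, with Lyz2, Csf1r, Itgam and Cd68 at 0. All 6 erythroid markers were at 0 in both libraries. The part of these other markers in the values below was not tested. With 1 library per group there is no test and no p-value: the 95% intervals given below are exact, cover counting error only, and leave out variation between animals, sorts and cells.

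The family as a whole took a larger part of the transcriptome in TMREhi, 31.3% of UMIs (31.3 to 31.4), than in TMRElo, 22.7% (22.5 to 23.0). In single cells it ranged from 2.11% to 46.1% with a median of 31.3% in TMREhi, and from 0.872% to 36.5% with a median of 11.6% in TMRElo. The ranges overlapped, and both libraries held a low and a high set of cells. Among cells with at least 15% of UMIs from the family, the share was 31.8% in 270 TMREhi cells and 27.2% in 15 TMRElo cells. Among the cells under 15% it was not higher in TMREhi. It was 5.89% (5.69 to 6.10) in 47 TMREhi cells and 6.09% (5.77 to 6.41) in 19 TMRElo cells. The 2 libraries thus differed in their mix of low and high cells as well as in the share within the high cells. As CPM, 83 members averaged 10 CPM or more over both libraries, and 78 of these had the higher level in TMREhi. Over the 83, the median of log2 ratios (TMREhi over TMRElo, after adding 1 CPM) was 0.52, against −0.35 over all 7802 genes at that level. Past 1.5-fold higher in TMREhi were 32 members (38.6%) beside 18.8% of those genes, and past 1.5-fold lower stood 1 member beside 42.3% of the genes. Many of the 7802 genes rest on few UMIs in TMRElo. Among the 475 genes abundant enough to be compared with the members (a level equal to 0.1% of the family), the median log2 ratio was 0.29, against 0.53 over the 80 members at that level. The members' median among cells above the 15% limit was 0.29. Over the 80 members compared in those cells it was 0.30, against 0.15 over 424 genes that met the same minimum there.

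**Figure D1:**
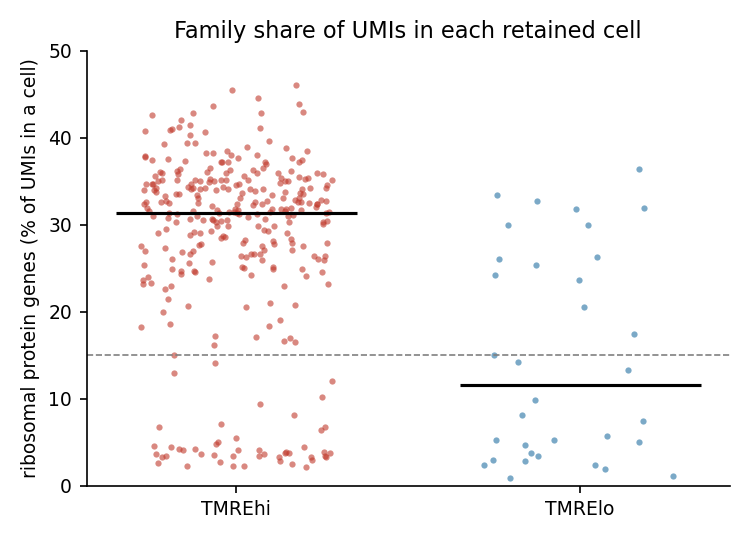
Share of each retained cell's UMIs that came from the 86 ribosomal protein genes (vertical axis, %), with 1 point per cell, for TMREhi (317 cells, left) and TMRElo (34 cells, right). Black bars are medians, at 31.3% in TMREhi and 11.6% in TMRElo, and the dashed line is the 15% limit between low and high cells.

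Because the whole family differed between the libraries, each member is given below as its share of all family UMIs. The 86 members were unequal. Rpl41, whose product is the shortest ribosomal protein at 25 residues, led with 3.12% of family UMIs in TMREhi and 3.26% in TMRElo. Also high were Rpl39 (2.26% in TMREhi, 2.69% in TMRElo), Rps26 (2.14% in TMREhi, 1.92% in TMRElo) and Rps20 (2.05% in TMREhi, 2.06% in TMRElo). The order counts UMIs, which the 5′ kit records once per captured molecule, and is not divided by transcript length. Members with a large-subunit prefix took 55.3% of family UMIs in TMREhi (55.2 to 55.4) and 54.9% in TMRElo (54.3 to 55.5), so the balance of the 2 subunits differed by less than the counting interval.

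UMIs were found for 85 members in TMREhi and 83 in TMRElo. The tissue-restricted paralogs were nearly silent: Rpl10l, best known from the testis, had 0 UMIs in both libraries, Rpl39l had 3 in TMREhi and 0 in TMRElo, and Rpl3l, a muscle paralog, had 2 in TMREhi and 0 in TMRElo. No ratio is given for these 3. Rps27rt, a near-identical intronless copy of Rps27 whose reads cannot be told with certainty from those of its parent, had 112 UMIs in TMREhi and 9 in TMRElo. With Rps19bp1 (148 UMIs in TMREhi, 5 in TMRElo) and Rpl7l1 (219 UMIs in TMREhi, 5 in TMRElo), these made up the 6 members under a mean share of 0.1% of the family. The other 80 were compared.

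Between the libraries the make-up of the family was close, with 4 exceptions past 1.5-fold. Rps27l was higher in TMREhi, at 0.136% of family UMIs (1237 UMIs) against 0.0795% in TMRElo (19 UMIs), a ratio of 1.71 (1.09 to 2.85). Rpl13a, a large-subunit protein also known in human monocytic cells as a translational repressor after interferon treatment, was lower in TMREhi, at 0.494% against 0.874% in TMRElo, a ratio of 0.565 (0.492 to 0.652). Rpl38, which in mouse embryos is needed for translation of a set of Hox mRNAs, took 1.23% in TMREhi and 1.99% in TMRElo, a ratio of 0.621 (0.566 to 0.682). Rps29, a short zinc-binding protein of the small subunit, took 1.87% in TMREhi and 2.95% in TMRElo, a ratio of 0.635 (0.589 to 0.686). The count is 1 of 80 members higher and 3 of 80 lower. Among all 475 genes that met the same abundance minimum, with ratios taken relative to the median gene, 10.1% lay past 1.5-fold higher and 25.5% past 1.5-fold lower. The difference between members and genes was not tested. Rps29 was the called member nearest to the limit, and Rpl36al, at a ratio of 0.675, the nearest that was not called.

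The 3 members with lower shares in TMREhi were so in most single cells. Counted were cells with at least 200 family UMIs, 273 in TMREhi and 16 in TMRElo. Rps29 exceeded the TMRElo pooled share in 11 of 273 TMREhi cells, and exceeded the TMREhi pooled share in 16 of 16 TMRElo cells. For Rpl38 these counts were 13 of 273 TMREhi cells and 15 of 16 TMRElo cells, and for Rpl13a they were 16 of 273 TMREhi cells and 14 of 16 TMRElo cells. No single TMRElo cell held more than 15.5% of the UMIs of any of the 3. Rps27l was less uniform: 178 of 273 TMREhi cells lay above the TMRElo pooled share, and 4 of 16 TMRElo cells lay above the TMREhi pooled share.

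The 3 lower members were also lower in 4 subsets of cells or barcodes, though not always past the limit. Rpl13a had a ratio of 0.558 in cells led by Vγ1 family segments, 0.599 in non-cycling cells and 0.582 in cells above the 15% family limit. For Rpl38 the same ratios were 0.583, 0.617 and 0.622, and for Rps29 they were 0.622, 0.733 and 0.639, so Rps29 did not pass the 1.5-fold limit among non-cycling cells. The background was 9.89% of 455 genes higher and 22.6% lower in Vγ1 family-led cells, and 7.78% of 424 genes higher and 18.9% lower in cells above the family limit. Rps27l was past the 1.5-fold limit among Vγ1 family-led cells (1.67, 1.01 to 2.99) but not among non-cycling cells (1.24, 0.642 to 2.76). Rps19 was past it on the high side among non-cycling cells, at 1.52 (1.26 to 1.85). The background among non-cycling cells was 7.82% of 371 genes higher and 16.4% lower. Rpl36al was past it on the low side there (0.582, 0.436 to 0.792), and Rpl7a was past it on the high side among Vγ1 family-led cells (1.57) and among cells above the family limit (1.52). The TMRElo values of these 3 subsets rest on 9 to 15 cells with at least 200 family UMIs. The fourth subset was the barcodes under 15% family UMIs, taken without the mitochondrial limit, 733 in TMREhi and 117 in TMRElo. There Rpl13a was at 0.528 (0.397 to 0.715), while Rpl38 at 0.667 (0.537 to 0.836) and Rps29 at 0.775 (0.647 to 0.936) did not pass 1.5-fold. Rpl12 at 0.568 (0.429 to 0.766) and Rps27 at 0.637 (0.523 to 0.782) did, and no member passed it higher. Rps27l was at 0.931 (0.347 to 3.52), from 65 UMIs in TMREhi and 4 in TMRElo. The background there was 22.9% of 4517 genes higher and 19.7% lower.

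Among members not called, Rps28 had 1.54% of family UMIs in TMREhi and 2.00% in TMRElo (ratio 0.770), and Rpl36al had 0.257% in TMREhi and 0.381% in TMRElo. On the other side stood Rpl7a at 0.580% in TMREhi and 0.406% in TMRElo (1.43, 1.17 to 1.77), and Rpl14 and Rps6, the S6 kinase substrate, at ratios of 1.32 each. In all, the interval lay above 1 for 21 members, below 1 for 12, and held 1 for 47.

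Most members with a very short product had a lower share in TMREhi. This grouping was chosen after the values were seen. Of 10 compared members with at most 100 residues, 9 had a ratio below 1, with a median of 0.828 and Rps27l as the exception. Among 48 members of intermediate length 17 were below 1 (median 1.03), and among 22 members with more than 200 residues 3 were, with a median of 1.15. Rpl13a, at 203 residues, was the lowest of all and one of these 3. Across the 80 genes Spearman's rho between ratio and protein length was 0.35, and between ratio and transcript length 0.0096. Inside TMREhi the short members also stood apart. In cycling over non-cycling cells 8 of the 10 were below 1 (median 0.913), with a rho of 0.24 to protein length. In Vγ6-led over other V-led cells 3 of the 10 were below 1 (median 1.12), with a rho of −0.26. Genes of 1 pair of libraries are not independent, and the relation is a description.

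**Figure D2:**
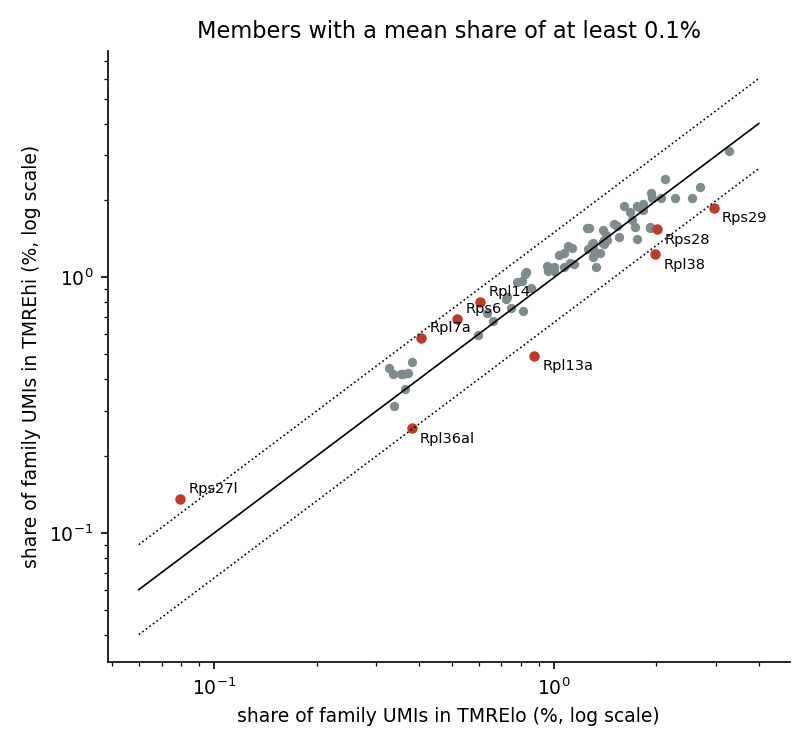
Share of family UMIs of each of the 80 compared members in TMREhi (vertical axis, %, log scale) against TMRElo (horizontal axis, %, log scale), over retained cells. The solid line marks equal shares and the dotted lines a 1.5-fold difference, and red points name 9 members among the highest and lowest ratios, with Rps27l above the upper dotted line and Rpl13a, Rpl38 and Rps29 below the lower one.

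**Figure D3:**
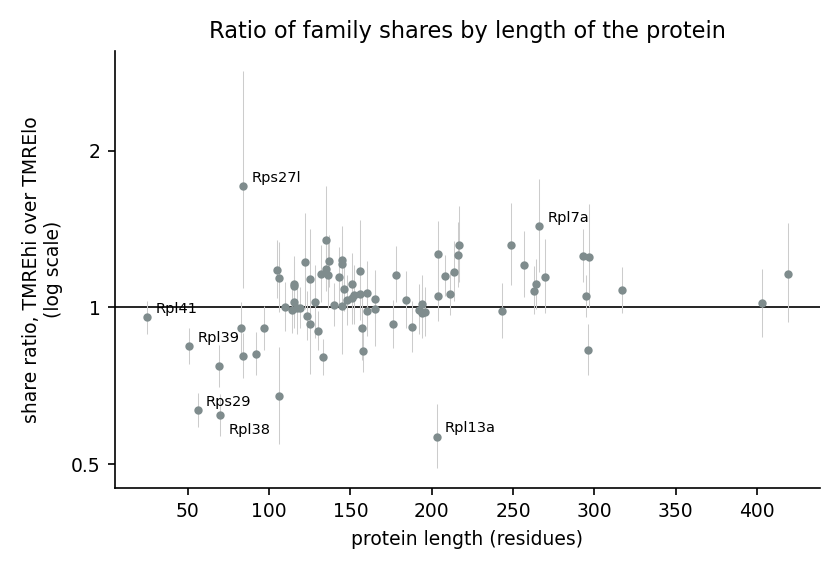
Ratio of family shares, TMREhi over TMRElo (vertical axis, log scale), against length of the annotated protein in residues, for the 80 compared members with exact 95% counting intervals. Points at the left, with at most 100 residues, lie below the line at 1 except Rps27l.

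Within TMREhi the shares of most members differed between cycling and non-cycling cells by more than counting error, but few by much: the interval lay above 1 for 34 members, below 1 for 26 and held 1 for 20. Phases were called on cells thinned to 2000 UMIs, and 167 cells called S or G2/M (median 13647 UMIs before thinning) were set against 99 cells called G1 (median 5431 UMIs). Cycling cells gave 30.9% of their UMIs to the family and non-cycling cells 34.7%. Rps27l took 0.148% of family UMIs in cycling and 0.0937% in non-cycling cells, a ratio of 1.58 (1.36 to 1.86). Rpl22l1 took 0.507% in cycling and 0.328% in non-cycling cells, a ratio of 1.55 (1.42 to 1.68). Both are the minor partner of a paralog pair. Rps25 took 0.448% in cycling and 0.332% in non-cycling cells (1.35, 1.24 to 1.47). Rps25 is a small-subunit protein needed for initiation at some viral internal ribosome entry sites. Within the library a member is called past the limit when its ratio shows a share at least 25% higher or at least 20% lower. Rpl14 (1.26) and Rps6, right at the limit, were also among the 6 called higher.

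In the other direction the major partner Rps27 took 1.31% of family UMIs in cycling and 1.77% in non-cycling cells, a ratio of 0.738 (0.710 to 0.767). It was the single member past the limit on the low side. Rps24 (1.94% in cycling, 2.40% in non-cycling cells, ratio 0.806), Rps7 (0.844), Rpl34 (0.854) and Rpl13a (0.862) followed within the limit. Rps27 lay above the non-cycling pooled share in 14 of 164 cycling cells and above the cycling pooled share in 81 of 99 non-cycling cells, so the 2 sets overlapped at the edges. The calls were 6 of 80 members higher (7.50%) and 1 of 80 lower, beside a background of 29.5% of 376 genes higher and 23.4% lower. S and G2/M cells gave nearly equal ratios against G1 for these members: 1.57 in S and 1.53 in G2/M for Rpl22l1, 1.55 in S and 1.61 in G2/M for Rps27l, and 0.746 in S and 0.729 in G2/M for Rps27.

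Of Vγ1 family-led cells with a phase call 133 of 187 were cycling (71.1%), against 17 of 53 other V-led cells (32.1%). The comparison was therefore repeated, as a choice made after the data were seen, in the 133 cycling and 54 non-cycling cells led by the Vγ1 family. There Rps27l had a ratio of 1.55, Rpl22l1 1.41 (1.28 to 1.56), Rps25 1.34 and Rps27 0.798 (0.760 to 0.839). In all 4 members were past the limit higher and 1 lower, beside a background of 27.6% of 377 genes higher and 15.6% lower. αβ-lineage markers summed to 259 CPM in cycling and 182 CPM in non-cycling cells, and myeloid markers to 56.9 CPM in cycling and 851 CPM in non-cycling cells, where Vγ1 family-led cells had 282 CPM. Their part in these ratios was not tested.

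TMRElo had only 6 cycling and 9 non-cycling cells. Rps12, a small-subunit protein, had a ratio of 1.61 (1.24 to 2.11) between them. Rpl22l1 at 0.788 (0.503 to 1.22) and Rps27 at 1.03 (0.838 to 1.26) had intervals that hold 1 in TMRElo, as did Rps25 at 1.47 (0.935 to 2.34) and Rps27l, with 0.0755% in cycling and 0.0753% in non-cycling cells. Of these, Rps25 and not the others was past the limit on the side it took in TMREhi. Rpl22l1 was past the limit on the low side, opposite to its side in TMREhi. The interval of Rpl22l1 in TMRElo does not reach the ratio in TMREhi. The difference between the 2 libraries was not tested. In TMRElo 7 members were past the limit higher and 8 lower, beside 32.9% and 29.7% of 474 genes.

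The clearest outlier among the leading V segments was Rpl22l1 in cells led by Vγ6, the segment of fetal γδ T cells that mostly become IL-17 producers. The leading segment is the one with the most γ V UMIs in a cell, and 250 TMREhi cells had one. Rpl22l1 took 0.206% of family UMIs (147 UMIs) in 39 Vγ6-led cells and 0.493% (3825 UMIs) in the 211 other V-led cells, a ratio of 0.418 (0.352 to 0.493). Of 39 Vγ6-led cells 1 lay above the pooled share of the others, and of 207 others with at least 200 family UMIs 196 lay above the pooled share of the Vγ6-led cells. The 10th, 50th and 90th percentiles over cells were 0.0441%, 0.183% and 0.328% in Vγ6-led cells and 0.240%, 0.470% and 0.691% in the others. Its partner Rpl22 went the other way, with 0.789% in Vγ6-led cells and 0.666% in the others, a ratio of 1.19 (1.08 to 1.29).

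Further members past the limit lower in Vγ6-led cells included Rps27l (0.679), Rps25 (0.698) and Rpl7a (0.723). Rpl41, the member with the shortest product, was also among them, at 2.54% in Vγ6-led cells and 3.20% in the others (0.795, 0.758 to 0.834). Those higher were Rps27 at 1.92% in Vγ6-led cells and 1.36% in the others (1.40, 1.33 to 1.49), Rps24 at 2.59% in Vγ6-led cells and 1.99% in the others (1.30), Rps7 (1.27), Rps19 and Rps29. In Vγ6-led cells Rps19 took 1.63% and Rps29 2.28%, against 1.30% for Rps19 and 1.82% for Rps29 in the others. In all, 5 members were past the limit higher and 9 lower, 6.25% and 11.2% of the 80, beside 27% and 28.5% of 382 genes. The stalk proteins Rplp0 (0.903), Rplp1 (1.07) and Rplp2 (0.879) were within the limit, as was Rpsa (0.815), also known as the laminin receptor precursor. The Vγ6 and the cell cycle comparisons draw on the same cells, and the V groups differed in cycling: 7 of 35 Vγ6-led cells with a phase call were cycling (20%), against 143 of 205 others (69.8%). The median depth was 4856 UMIs in Vγ6-led cells and 10249 UMIs in the others.

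Among non-cycling cells alone Rpl22l1 again had the lowest ratio. It took 0.207% of family UMIs in 28 Vγ6-led cells and 0.366% in 62 other V-led cells, a ratio of 0.564 (0.450 to 0.7003), and 53 of the 62 others lay above the Vγ6 pooled share while 4 of the 28 Vγ6-led cells lay above that of the others. Rps27l, in contrast, had 0.0897% in Vγ6-led and 0.0905% in other non-cycling cells, a ratio of 0.991 (0.684 to 1.41). Rps6 (0.688), Rps2 (0.796) and Rpl3 (0.798) were also past the limit on the low side, and Rps27 at 1.27 (1.18 to 1.37) was the one past it higher. Rps24 was at 1.15 and Rpl22 at 1.22 (1.09 to 1.38). The background was 23.5% of 332 genes higher and 17.5% lower, beside 1.27% and 6.33% of 79 members. The median depth was 4833 UMIs in Vγ6-led and 6172 UMIs in other non-cycling cells. αβ-lineage markers summed to 80.2 CPM in these Vγ6-led cells, with 3 of 7 detected, and to 181 CPM in the others, with 7 of 7 detected. Myeloid markers summed to 58.3 CPM in Vγ6-led cells and 407 CPM in the others. The part of both lists in the ratio was not tested.

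As a part of the Rpl22l1 and Rpl22 UMIs together, Rpl22l1 made up 20.7% (17.8 to 23.9) in Vγ6-led cells, 42.2% (37.1 to 47.5) in Vγ4-led, 32.9% (26.5 to 39.7) in Vγ5-led and 42.8% (41.8 to 43.9) in Vγ1 family-led cells. Vγ6-led cells were thus the lowest, and the intervals of Vγ4-led and Vγ1 family-led cells overlapped. Among non-cycling cells the part was 19.96% (16.5 to 23.8) in Vγ6-led and 36.3% (33.6 to 39.0) in Vγ1 family-led cells. It was 43.3% in cycling and 31.5% in non-cycling cells of TMREhi. Between libraries it was 40.7% (39.8 to 41.7) in TMREhi and 36.5% (30.6 to 42.9) in TMRElo, which had no retained cell led by Vγ6 or Vγ5.

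**Figure D4:**
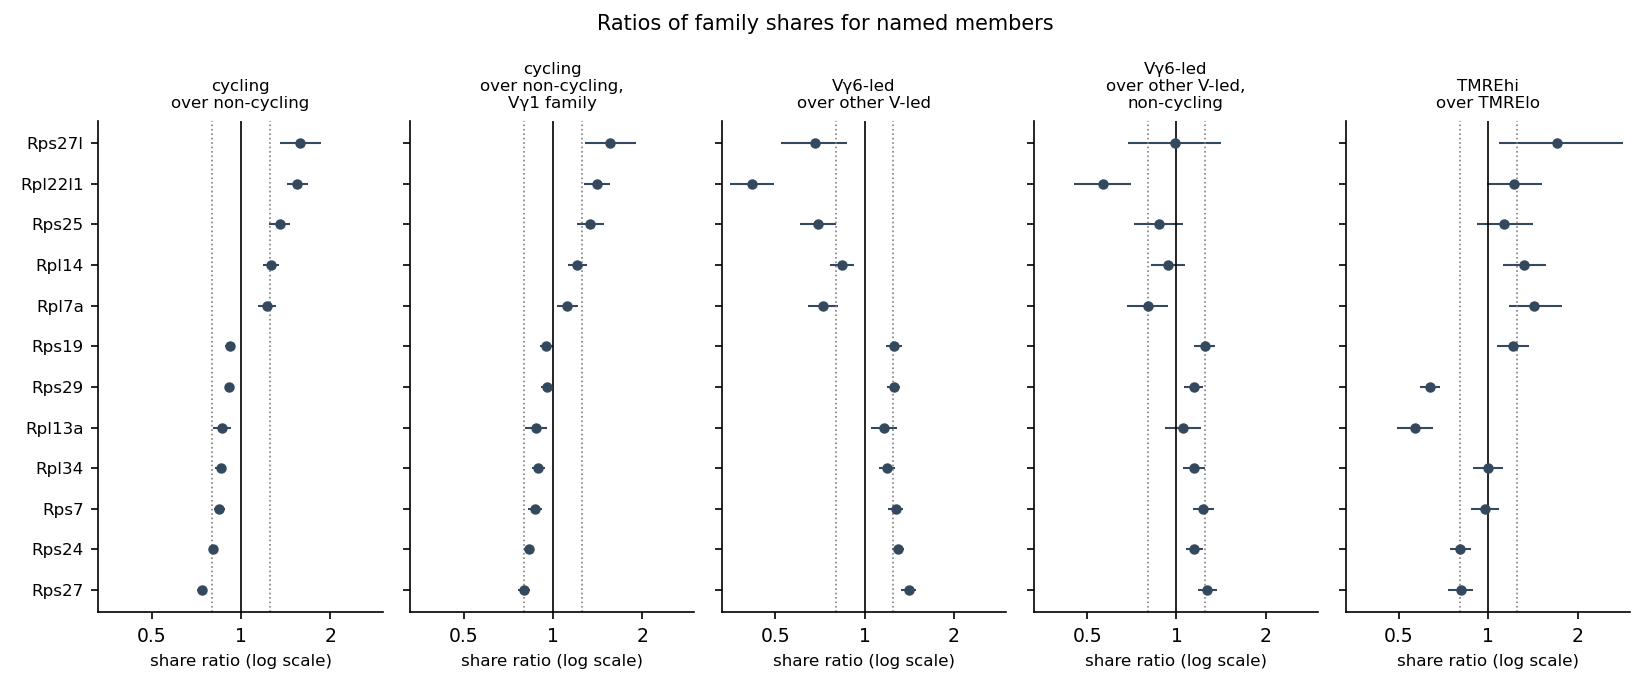
Ratios of family shares (horizontal axes, log scale) with exact 95% counting intervals for 12 members named in the cycling or the Vγ6 comparison, in 5 comparisons; the first 4 panels are TMREhi cells. The solid line is a ratio of 1 and the dotted lines the limit for a call within the library, and Rpl22l1 lies right of the lines in both cycling panels and left of them in both Vγ6 panels.

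**Figure D5:**
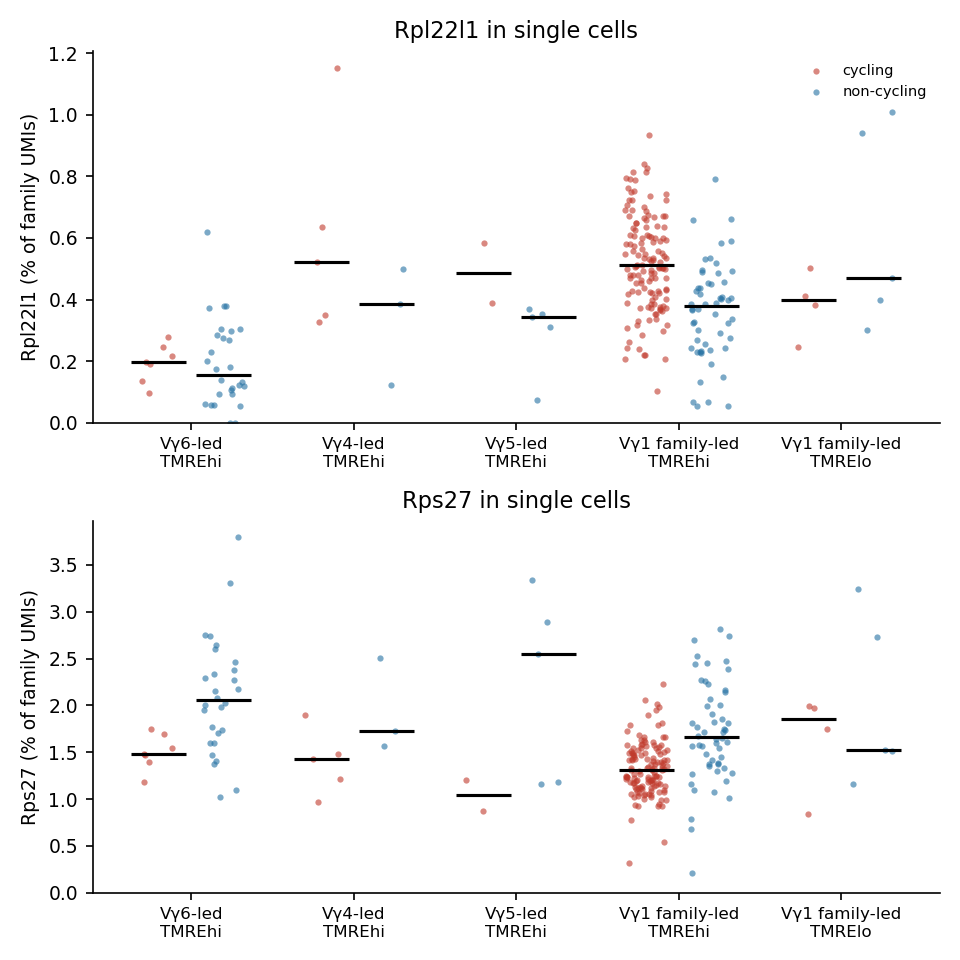
Share of family UMIs of Rpl22l1 (upper panel, %) and Rps27 (lower panel, %) in single cells with a phase call and at least 200 family UMIs, by leading V segment and library, with cycling cells in red at the left and non-cycling cells in blue at the right of each group. Black bars are medians, and the Vγ6-led cells sit low for Rpl22l1, with 1 of the 35 drawn above the pooled share of the other V-led cells.

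The other V groups held smaller or less certain differences. Vγ1 family-led cells (191 cells against 59 others) had a higher Rpl22l1, 0.499% against 0.311% in the other V-led cells (1.60, 1.45 to 1.78), a higher Rps27l (1.42, 1.18 to 1.71) and a lower Rps27, 1.35% against 1.75% (0.770, 0.736 to 0.806). Of the 59 other V-led cells 39 were Vγ6-led, so this is largely the Vγ6 comparison seen from the other side. The background was 22.1% of 385 genes higher and 16.4% lower. Among non-cycling cells (54 against 36) the ratio was 1.56 (1.30 to 1.88) for Rpl22l1, 0.785 (0.732 to 0.842) for Rps27 and 1.23 (0.881 to 1.74) for Rps27l, which was then within the limit. There the background was 15.1% of 331 genes higher and 19.6% lower, and 3 members were past the limit higher and 2 lower. In 10 Vγ4-led cells Rps14 was past the limit higher (1.26, 1.15 to 1.39) and Rps27l lower (0.676, 0.454 to 0.971), beside 12.3% and 14.1% of 391 genes. The 5 deepest of these cells held 78.2% of the group's UMIs. Rps27l rested on 30 UMIs there, 33.3% of them in a single cell. Over the processing settings its ratio ranged from 0.221 to 0.676, and that of Rps14 from 1.21 to 1.36. In 7 Vγ5-led cells, which carry the segment of the future epidermal γδ T cells, Rpl13a took 0.686% of family UMIs against 0.490% in the others (1.40, 1.17 to 1.67). Rpl7a (0.760), Rpl22l1 (0.761, 0.590 to 0.967) and Rps27l (0.779, 0.474 to 1.21) were past the limit on the low side, and Rpl31 on the high side at 1.27 (0.993 to 1.59), beside 18.5% of 389 genes higher and 19.8% lower. A single one of the 7 cells held 42.3% of the group's Rpl13a UMIs, 60.7% of Rpl7a, 48.5% of Rpl22l1, 65% of Rps27l and 68% of Rpl31. For Rpl31 the median Vγ5-led cell was at 0.195% and the median other cell at 0.291%, and the ratio was 0.887 among non-cycling cells and 0.894 as a mean over cells. Vγ7 led in 3 cells, which were not compared.

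Across the retained TMREhi cells most members varied more than sampling alone would give. The variance of a member's counts around its mean family share, divided by that of binomial sampling, had a median of 1.66 over the 80 members and ranged from 1.07 for Rpl9 to 3.66 for Rps24. It was above 2 for 17 members. After Rps24 came Rps27 (3.41), Rps2 (3.28), Rpl41 (3.16) and Rpl38 (3.07), each with a share above the median member's 1.23%. Rpl22l1, at 2.60, ranked 8 of 80 with a share of 0.465%, while its partner Rpl22 was at 1.35. Rps24 is a small-subunit protein mutated in some people with Diamond-Blackfan anaemia, as are Rps19 and Rps7.

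In low-ribosomal barcodes 9 of 80 members were past 1.5-fold. These are barcodes with at least 500 genes and under 15% family UMIs, without the mitochondrial limit: 733 in TMREhi against 292 at or above 15%, with 25 of the 1025 within 2 points of the limit. Rpl4 took 1.09% of family UMIs in low-ribosomal and 0.418% in high-ribosomal TMREhi barcodes, a ratio of 2.60 (2.42 to 2.80). Rps15 took 0.874% in low- and 0.368% in high-ribosomal barcodes (2.38, 2.19 to 2.57), and Rpl5 took 0.837% in low- and 0.420% in high-ribosomal barcodes (1.99, 1.84 to 2.16). Rpl18 (1.62), Rpl36al (1.61) and Rpl11 (1.56) were also past 1.5-fold. Rpl5 and Rpl11 bind Mdm2 together with 5S RNA when ribosome assembly is disturbed. Rps27l (0.575) and Rpl32 (0.658) were past it on the low side. The background was 33.3% of 1795 genes higher and 38.1% lower, against 7.50% and 3.75% of the members. In TMRElo the same ratio, over 117 low- and 16 high-ribosomal barcodes, was 2.75 (1.86 to 4.02) for Rpl4, 2.23 (1.47 to 3.34) for Rps15 and 2.00 (1.27 to 3.08) for Rpl5, where 7 of 79 members were past the limit higher and 6 lower, beside 34.8% and 35.2% of 3408 genes. Rpl7a (2.17, 1.45 to 3.18) and Rpl12 (1.97, 1.40 to 2.72) were also past it higher there, and Rpl39 (0.408, 0.303 to 0.539) was the lowest. The median mitochondrial share was 16.9% of UMIs in low- and 3.55% in high-ribosomal TMREhi barcodes, and αβ-lineage markers summed to 1166 CPM in low- and 245 CPM in high-ribosomal ones. Their part in these ratios was not tested.

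Of the paralog pairs, Rps27l made up 8.75% (8.29 to 9.22) of the UMIs of Rps27l and Rps27 in TMREhi and 4.33% (2.63 to 6.68) in TMRElo, and 10.2% in cycling against 5.02% in non-cycling TMREhi cells. Rpl36al, the single-exon copy of Rpl36a, made up 23.7% (22.9 to 24.6) of its pair in TMREhi and 34.5% (28.8 to 40.5) in TMRElo. It differed little with the cell cycle, at 23.4% in cycling and 24.9% in non-cycling TMREhi cells. Rpl7l1 made up 3.20% of its pair in TMREhi and 3.18% in TMRElo. The stalk and the ubiquitin-fused members were even between libraries, with ratios of family share of 1.08 for Rplp0, 0.987 for Rplp1, 1.10 for Rplp2, 1.05 for Rpsa and 1.06 for Rps27a. Where near-identical copies exist, the counting may split reads between them.

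The genes that make the remaining pieces of the translation machinery were taken as a list of 46 initiation, elongation and related factors. As CPM, 36 were higher and 10 lower in TMREhi (78.3% higher), where 38.1% of the 7802 genes were higher. Past 1.5-fold higher were 12 factors (26.1%) beside 18.8% of the genes. Their median log2 ratio was 0.38, where the ribosomal protein genes had 0.52, the 7802 genes −0.35 and the 475 abundant genes 0.29. The largest ratios were those of Npm1 (2.10, 1.75 to 2.55), a nucleolar assembly factor, Eif5a (2.01), Btf3 (1.91) and Eef1g (1.89). At the low end stood Eif3j1 (0.590, 0.384 to 0.954), Eif4g1 (0.620, 0.399 to 1.01) and Eif4a2 (0.660, 0.400 to 1.17). In that order they had 22, 21 and 16 UMIs in TMRElo, and the intervals of Eif4g1 and Eif4a2 hold 1. Fau, which encodes a ubiquitin-like protein fused to the ribosomal protein eS30 and lies outside the symbol rule, had 4738 CPM in TMREhi and 4273 CPM in TMRElo, a ratio of 1.11 (1.01 to 1.22).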

How the data were processed

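Single-cell RNA was measured in 1 TMREhi and 1 TMRElo library. The authors deposited raw UMI counts per gene and barcode, made with Cell Ranger 3.0.2 per the file headers. Cell Ranger 3.0 and mm10 are named in the submitters' processing notes. Annotation release: not given in the sources used here, and likewise the settings of the cell caller. Coordinates and protein lengths came from GENCODE vM21 on GRCm38, in which all 86 members were found by gene identifier, and start-site sequences from RefSeq on GRCm38.p6.

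Counts were summed over retained cells (at least 500 genes, at most 10% mitochondrial UMIs). Ratios of family shares carry exact conditional binomial 95% intervals, and percentages exact Clopper-Pearson intervals. A member was called past 1.5-fold between libraries or barcode classes and past 25% higher or 20% lower within a library, at a mean share of at least 0.1% of the family. The background applied the same abundance minimum and fold to all genes, relative to the median gene. A leading V needed the most γ V UMIs without a tie, with Trgv2, Tcrg-V1 and Tcrg-V3 summed as the Vγ1 family. Phases came from scanpy's cell cycle score on 42 S and 52 G2/M genes in cells thinned to 2000 UMIs. Scrublet marked 2 of the 317 retained cells in TMREhi and 7 of the 34 in TMRElo, and marked cells were kept. Over all tested barcodes it marked 5 of 1025 in TMREhi and 18 of 133 in TMRElo. A share of marked TMREhi barcodes this small gives no working doublet call.

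Named members were the 5 highest and 5 lowest ratios per comparison, the 5 highest shares and variance ratios, and the paralog, stalk and fusion genes. Further members past a limit were named after their values were seen. Values of a few genes are not reported here, though the counts over the family and lists hold them. The members and lists were chosen with earlier results of these data known. The tools were scanpy 1.11.5, pandas 2.3.3, scipy 1.17.1, numpy 2.4.6 and matplotlib 3.10.9 under Python 3.11.15, and the computation was tested on simulated data.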

Additional observations from a re-analysis of the deposited data

Results flagged for a closer look

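Ribosomal symbols marked as pseudogenes were kept out of the family and of every comparison, and 6 of the 9 in the files held more UMIs than the 3 that a count of 0 allows. In TMREhi these were Rpl27-ps3 with 184 UMIs, Rpl9-ps6 with 110, Rpl10-ps3 with 73, Rps12-ps3 with 57, Rpl36a-ps1 with 24 and Rpl13a-ps1 with 23. In TMRElo they were Rpl9-ps6 with 12 UMIs, Rps12-ps3 with 11, Rpl27-ps3 with 9 and Rpl10-ps3 with 9. All 9 together came to 471 UMIs in TMREhi and 46 in TMRElo, as much as 0.0517% of the family's UMIs in TMREhi and 0.192% in TMRElo. Such copies are close to their parent genes in sequence, so their reads may belong to either.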

How the results depend on the processing

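No paired analysis was possible because each group has 1 library and the labels give no replicate numbers. Of 770 alternative values for 139 named ratios, 660 moved by no more than the counting interval, 108 moved further and 2 turned a ratio past its limit to the other side of 1, both for Rpl31 in Vγ5-led cells (0.887 among non-cycling cells and 0.894 as a mean over cells). Among the other values 66 crossed 1, for ratios within their limit, 61 of these for ratios whose interval holds 1. Over both kinds 37 ratios crossed 1 in at least 1 alternative. Rpl13a, Rpl38 and Rps29 stayed below 1 between libraries throughout (0.495 to 0.599, 0.583 to 0.737 and 0.622 to 0.733), as did Rpl22l1 in Vγ6-led cells (0.377 to 0.564), while Rpl22l1 between libraries ranged over 1 (0.739 to 2.08). The cause of these moves was not tested. Settings that moved both libraries were all deposited barcodes, no mitochondrial limit, at least 1000 genes with at most 5% mitochondrial UMIs, cells above 15%, and a mean over cells. In that order the family share was 23.2%, 23.7%, 32.4%, 31.8% and 27.7% in TMREhi, and 11.6%, 12.6%, 28.3%, 27.2% and 14.9% in TMRElo. The members' median log2 ratio was 1.04, 0.97, 0.27, 0.29 and 0.95, and that of the translation factors 0.62, 0.59, 0.28, 0.26 and 0.56. Without the 5 deepest cells the TMRElo family share was 18.4% and the members' median 0.82, and without Scrublet doublets these were 24% and 0.45. Between libraries 4 members were past the limit, against 8 as a mean over cells, 7 with no minimum share, 14 at the narrower limit used within TMREhi and 0 at 2-fold. For Vγ6 14 members became 6 among non-cycling cells, 9 at a minimum of 0.5% and 1 at 1.5-fold. For the cell cycle 7 became 12 without the 5 deepest cells, 11 with no minimum, 3 at 0.5% and 2 at 1.5-fold. For the Vγ1 family 3 became 5 among non-cycling cells and as a mean over cells, 6 with a stricter leading V (at least 3 UMIs and over 80%), without the 5 deepest cells and with no minimum, and 1 at 0.5% and at 1.5-fold. For Vγ4 2 became 1 without the mitochondrial limit and at 0.5%, 11 among non-cycling cells, 13 without the 5 deepest cells, 15 as a mean over cells, 6 with no minimum and 0 at 1.5-fold. For Vγ5 5 became 3 without the mitochondrial limit, 11 as a mean over cells, 10 with no minimum, 2 at 0.5% and 0 at 1.5-fold. The stricter leading V left too few cells for Vγ4 and Vγ5, and leaving out the 5 deepest cells too few for Vγ5. TMRElo depth limits every comparison between libraries: 3 UMIs there are 28.5 CPM.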
